A study of Rattus norvegicus with 5 samples.

Results

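The genes followed here were 3 lysosomal proteases, the cathepsins *Ctsb* (ENSRNOG00000010331), *Ctsd* (ENSRNOG00000020206) and *Ctsl* (ENSRNOG00000018566), together with cystatin C (*Cst3*, ENSRNOG00000005195) and apolipoprotein E (*Apoe*, ENSRNOG00000018454). They were taken by their Ensembl identifiers, by a rule that has no threshold on a measured value, and are 5 of the 35495 features in the count table. RNA was sequenced from microglia, the resident immune cells of the brain, that had been isolated on Percoll gradients from male Sprague Dawley offspring. In the control group (libraries control 1 and control 3) the dams had received the empty control adenovirus. In the CYP11A1 group (libraries CYP11A1 1, 2 and 3) they had received an adenovirus carrying the human CYP11A1 cDNA, which encodes the enzyme that converts cholesterol to pregnenolone. Both vectors carried GFP and were injected into the dams in gestation, so that the dams of both groups received a virus. The labels give an age of 3 months, and the methods of the study give a younger age. The labels do not say whether the libraries of a group came from separate litters, so a p-value here measures the spread between these libraries, which may be technical.

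Cathepsins are made as inactive precursors, sorted to the lysosome through mannose phosphate tags and activated there by the acid pH. Cathepsins B and L are cysteine proteases and cathepsin D is an aspartic protease. Cystatin C is a secreted protein that inhibits cysteine cathepsins but not cathepsin D. Apolipoprotein E carries cholesterol and phospholipids between brain cells. In the adult rodent brain *Cst3*, *Ctsb* and *Ctsd* are abundant transcripts of microglia, whereas *Apoe* is made mainly by astrocytes and rises in activated microglia. Many lysosomal genes carry the CLEAR element, a binding site of the transcription factor TFEB, in their promoters.

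Total counts per library lay between 9623896 and 13624545. Control 1 and CYP11A1 3 had the fewest features with a count, 12042 and 10766, against 14953 to 16969 in the other libraries. The 10 features with the most counts took between 37.5% (CYP11A1 3) and 65.4% (CYP11A1 1) of the counts of a library. Shares of the total and FPKM therefore depend on these few features. The TMM factors of edgeR, which correct for composition, lay between 0.615 in CYP11A1 1 and 1.35 in CYP11A1 2. Features carry identifiers alone, and 0 of them could be matched to a symbol in the reference table used here. Markers of microglia, astrocytes and blood cells were therefore not analysed, and the cell type on the label was not checked in these counts. The paper identified the cells as microglia by Cd11b staining, in which most but not all cells were positive. A bulk library cannot tell fewer cells of a type from less RNA per cell.

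To see which sequences precede these genes, the RefSeq promoters (build GRCr8) were searched for motifs over the 250 bases upstream of the annotated start. The build of the deposited files is not given in the sources used here, so these positions belong to the RefSeq annotation only. Of the 5 genes, 4 matched an entry (*Ctsd*, *Ctsl*, *Cst3* and *Apoe*). The windows of *Ctsd*, *Ctsl* and *Cst3* are shown, the gene with the lowest level of the 5 beside the pair with the highest. They lie at chr1:206968822-206969071 on the minus strand, chr17:769854-770103 on the plus strand and chr3:156793938-156794187 on the minus strand. Capitals mark the E-box CACGTG and the GC box GGGCGG, each on either strand.
Ctsd: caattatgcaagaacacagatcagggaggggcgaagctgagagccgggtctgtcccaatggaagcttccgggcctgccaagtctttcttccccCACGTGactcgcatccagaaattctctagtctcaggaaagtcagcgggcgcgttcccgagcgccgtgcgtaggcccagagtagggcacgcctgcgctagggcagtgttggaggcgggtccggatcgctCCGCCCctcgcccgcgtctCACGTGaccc
Ctsl: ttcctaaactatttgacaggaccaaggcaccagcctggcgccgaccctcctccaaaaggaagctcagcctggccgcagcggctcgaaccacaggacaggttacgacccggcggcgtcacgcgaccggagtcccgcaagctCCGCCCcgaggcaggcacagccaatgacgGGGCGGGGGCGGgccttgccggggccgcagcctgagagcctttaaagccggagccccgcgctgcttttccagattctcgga
Cst3: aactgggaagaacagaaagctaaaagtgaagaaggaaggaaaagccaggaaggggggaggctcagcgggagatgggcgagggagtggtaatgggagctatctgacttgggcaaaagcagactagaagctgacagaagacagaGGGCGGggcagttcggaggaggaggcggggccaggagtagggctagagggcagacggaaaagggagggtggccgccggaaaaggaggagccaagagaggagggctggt

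The *Ctsd* window held 2 copies of CACGTG, which began 157 and 10 bases before the start. The copy nearer the start lay within TCACGTGA, the core of the CLEAR element, so these matches overlap. CACGTG was present in 5.59% of the 33469 promoter windows of this length, at least 2 copies in 0.43%, and TCACGTGA in 0.657%. The windows of *Ctsl* and *Cst3* held neither motif, and neither did the 3 windows of *Apoe*. The GC box, which 30.5% of all windows held, was present 3 times in *Ctsl* and once each in *Ctsd* and *Cst3*, and a pair of the *Apoe* windows, which overlap each other, shared the same 2 copies. A match says only that these letters are in the window. The GC content of the windows was 63.2% in *Ctsd*, 66.8% in *Ctsl* and 58.8% in *Cst3*, against a median of 51.2% over all windows. In the 3 *Apoe* windows it was 51.6%, 64.4% and 60.8%.

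The order of the 5 genes by level per length was the same in every library. On the FPKM scale (counts scaled to feature length and library total) *Cst3* was highest, followed by *Ctsl*, *Ctsb*, *Apoe* and *Ctsd*. Over the libraries the level of *Cst3* lay between 153 and 2234 FPKM and that of *Ctsl* between 39.5 and 544 FPKM. *Ctsb* lay between 13.3 and 74.3 FPKM, *Apoe* between 2.74 and 8.31 FPKM and *Ctsd* between 0.0363 and 5.75 FPKM. Apart from those of *Ctsb* and *Apoe*, the ranges of neighbours in this order overlapped between libraries. Within a library the closest neighbours were *Apoe* and *Ctsd* in CYP11A1 3, where the *Apoe* level in FPKM was 1.4 times that of *Ctsd* (exact 95% interval 1.1 to 1.77, counting error only).

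**Figure D1:**
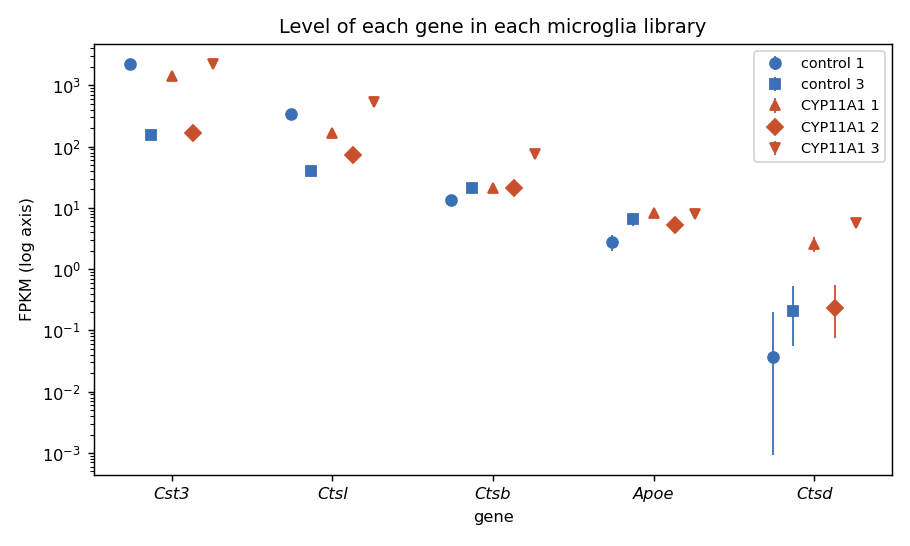
FPKM (log axis) of each gene in each of the 5 libraries, with exact 95% Poisson intervals that cover counting error only and are mostly smaller than the symbols. *Cst3* lies above *Ctsl*, *Ctsb*, *Apoe* and *Ctsd* in every library, and *Ctsd* rests on 1, 4 and 5 counts in control 1, control 3 and CYP11A1 2.

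Among all features with a count, *Cst3* was between percentiles 97.6 and 99.6 of FPKM in each library. *Ctsl* was between percentiles 94.2 and 98.1, *Ctsb* between 84.7 and 94 and *Apoe* between 65.7 and 88.7. *Ctsd* was at percentile 4.24 in control 1, 20.6 in control 3 and 21.2 in CYP11A1 2, and at 77.1 and 70.2 in CYP11A1 1 and 3. In 3 of the 5 libraries most detected features were thus above *Ctsd*, although it is known as an abundant transcript of microglia. The 5 genes together took 0.23% of the counts in control 1 and 0.0234% in control 3. In CYP11A1 1, 2 and 3 they took 0.142%, 0.0302% and 0.281%. *Cst3* alone made up between 44.1% and 77% of this sum.

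Whether maternal CYP11A1 overexpression altered these transcripts was examined by comparing the 3 CYP11A1 libraries with the 2 controls in a fit over all features (the quasi-likelihood test of edgeR, p-values adjusted by Benjamini-Hochberg). None of the 5 genes passed an adjusted p of 0.05, nor did any other feature, so that 0 of 10346 features tested (0%) were called, and 11 were called by DESeq2. Without adjustment 441 features (4.26%) had a p under 0.05, and 151 of these (1.46%) were higher in the CYP11A1 group. *Ctsd* was 1 of them, but it passed the filter on low counts only through CYP11A1 1 and CYP11A1 3, the libraries where it was high, so nothing is read from its place there. The other 4 genes had a median log2 fold change of 0.64, against 0.15 over all features tested. Of these, *Cst3* and *Ctsl* changed sign when single libraries were left out. The values below are CPM, the counts scaled to TMM library sizes, in which libraries can be compared for 1 gene. On this scale the groups overlapped in each gene. Over all features tested, every CYP11A1 library was above both controls in 6.49% and below both in 7.91%. For *Ctsd* the scaling decided the overlap: in FPKM every CYP11A1 library was above both controls, as was the case for 5.95% of all features tested. The other 4 genes overlapped in FPKM too.

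Of the cathepsins, *Ctsd* differed most between libraries. It had 1 count in control 1 and 4 in control 3, and 57, 5 and 154 counts in CYP11A1 1, 2 and 3. The exact 95% Poisson intervals of these counts were 0.0253 to 5.57 and 1.09 to 10.2 in the controls, and 43.2 to 73.9, 1.62 to 11.7 and 131 to 180 in the CYP11A1 libraries. CYP11A1 1 and 3 were thus far above the other libraries by counting error, and CYP11A1 2 was at the level of control 3. In CPM the values were 0.0761 and 0.392 in the controls, and 8.42, 0.353 and 9.96 in CYP11A1 1, 2 and 3, so that CYP11A1 2 fell below control 3. In FPKM, which does not use the TMM factors (1.35 in CYP11A1 2), the values were 0.0363 and 0.206 in the controls and 2.55, 0.235 and 5.75 in the CYP11A1 libraries, and the groups did not overlap. The counting intervals of control 3 and CYP11A1 2 overlapped widely on either scale. The mean was 0.234 ± 0.224 CPM in the controls (SD, n = 2) and 6.24 ± 5.16 CPM in the CYP11A1 group (SD, n = 3). The fitted log2 fold change of *Ctsd* was 4.76 ± 1.7 (SE), with an adjusted p of 1 from edgeR, and is given as a description, since the controls held 1 and 4 counts and the filter kept the gene only for the libraries where it was high. Where CYP11A1 1 or CYP11A1 3 was the only library left out, it did not pass the filter and was not tested. Its fold change rests on these libraries alone. Without control 1 its log2 fold change was 3.94, and without control 3 it was 6.06.

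*Ctsl* was high in 3 libraries of both groups. Its level was 573 CPM in control 1 and 61.2 CPM in control 3, and 441, 89.3 and 765 CPM in CYP11A1 1, 2 and 3. The controls alone differed 9.35-fold and the CYP11A1 libraries 8.57-fold. The mean was 317 ± 362 CPM in the controls (SD, n = 2) and 432 ± 338 CPM in the CYP11A1 group (SD, n = 3). The log2 fold change of *Ctsl* was 0.45 ± 0.99 (SE), with a 95% interval of -1.71 to 2.6 and an adjusted p of 1 from edgeR. Its direction turned to -0.51 without control 3 and to -0.24 without CYP11A1 3, and it was 2.82 without control 1.

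*Ctsb* was lower and steadier. It had 26.9 CPM in control 1 and 38.8 CPM in control 3, and 66.7, 30.6 and 124 CPM in CYP11A1 1, 2 and 3. CYP11A1 3 stood highest, and CYP11A1 2 lay between the controls. In FPKM control 3, CYP11A1 1 and CYP11A1 2 were level at 21.1, 21.1 and 21.3, so that the gap of CYP11A1 1 over control 3 is seen only with the TMM factors. The mean was 32.8 ± 8.42 CPM in the controls (SD, n = 2) and 73.6 ± 46.8 CPM in the CYP11A1 group (SD, n = 3). The log2 fold change of *Ctsb* was 1.17 ± 0.82 (SE), with a 95% interval of -0.62 to 2.95 and an adjusted p of 1 from edgeR. It was 0.58 without CYP11A1 3, and 0.31 with control 1 left out as well.

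*Cst3*, the cathepsin inhibitor, differed widely within both groups. It had 1780.3 CPM in control 1 and 113 CPM in control 3, and 1786, 98.8 and 1502 CPM in CYP11A1 1, 2 and 3. Control 3 and CYP11A1 2 were thus far below the other libraries, by 15.7-fold within the controls and by up to 18.1-fold within the CYP11A1 group. CYP11A1 1, with its TMM factor of 0.615, was highest in CPM, but in FPKM it was at 1395, below control 1 (2188) and CYP11A1 3 (2234). The mean was 947 ± 1179 CPM in the controls (SD, n = 2) and 1129 ± 903 CPM in the CYP11A1 group (SD, n = 3). The log2 fold change of *Cst3* was 0.25 ± 1.12 (SE), with a 95% interval of -2.19 to 2.69 and an adjusted p of 1 from edgeR. It was 3.31 without control 1, -0.76 without control 3, -0.25 without CYP11A1 1 and 0.01 without CYP11A1 3, so that single libraries decided its direction.

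*Apoe*, the lipid carrier, was below *Cst3*, *Ctsl* and *Ctsb* throughout and varied least of the 5 genes in FPKM. It had 46 counts in control 1 and 77 in control 3, and 113, 68 and 131 counts in CYP11A1 1, 2 and 3. In CPM this was 3.5 and 7.56 in the controls, and 16.7, 4.8 and 8.47 in CYP11A1 1, 2 and 3. CYP11A1 1, the library with the lowest TMM factor, stood highest on this scale, while in FPKM CYP11A1 1 and 3 were alike at 8.31 and 8.03. The mean was 5.53 ± 2.87 CPM in the controls (SD, n = 2) and 9.99 ± 6.09 CPM in the CYP11A1 group (SD, n = 3). The log2 fold change of *Apoe* was 0.83 ± 0.96 (SE), with a 95% interval of -1.25 to 2.92 and an adjusted p of 1 from edgeR. Without CYP11A1 1 it was 0.29, and without control 1 it was 0.37.

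**Figure D2:**
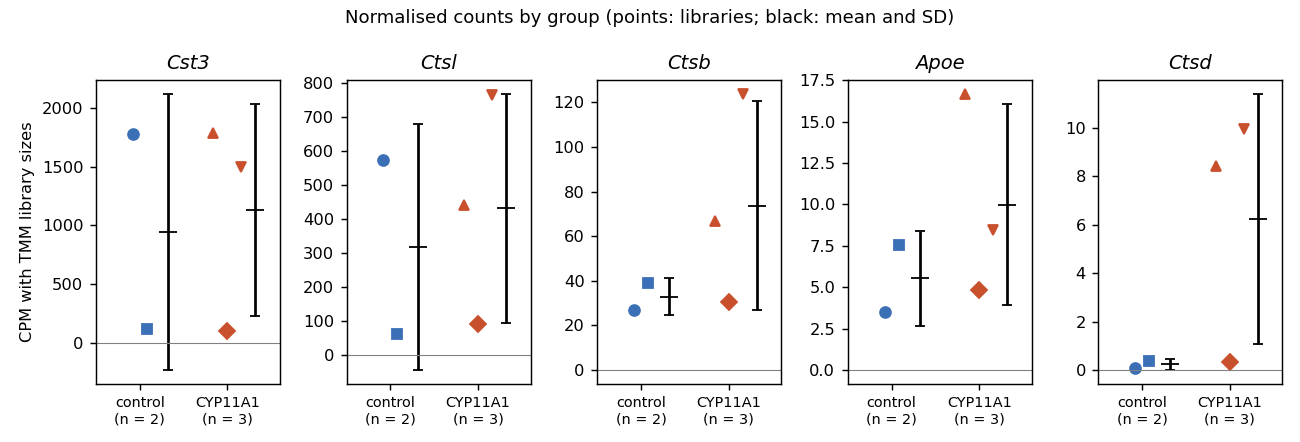
CPM with TMM library sizes of each gene (linear axes, 1 scale per gene) in the 2 control and 3 CYP11A1 libraries, with the mean and SD of each group in black. The groups overlap in every gene on this scale, in *Ctsd* only by CYP11A1 2 (0.353) against control 3 (0.392), and *Cst3* and *Ctsl* each have 1 control and 1 CYP11A1 library far below the rest of their group.

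**Figure D3:**
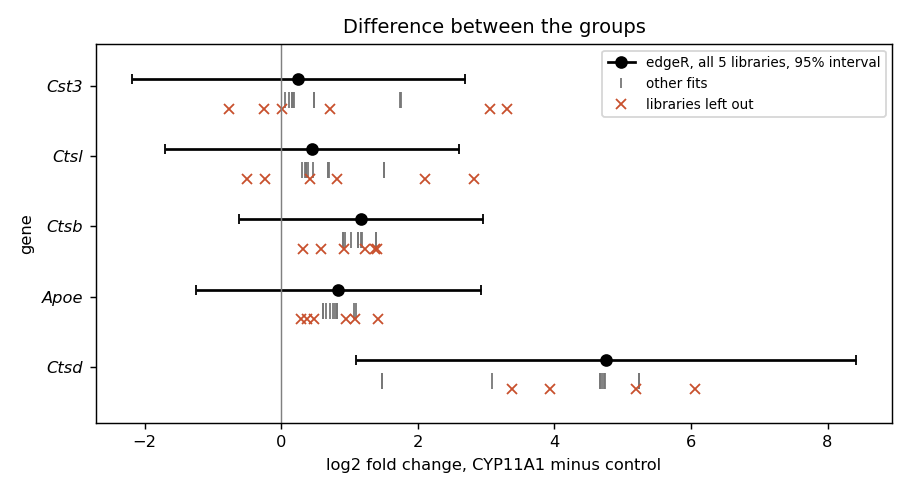
Log2 fold change of each gene (CYP11A1 minus control), with its 95% interval from edgeR on all 5 libraries, beside the values from other fits and from fits with libraries left out. The points of *Cst3* and *Ctsl* fall on both sides of 0 when single libraries are left out, and those of *Ctsb* and *Apoe* stay above 0. *Ctsd* has no point where CYP11A1 1 or CYP11A1 3 was the only library left out, since it was not tested there.

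The spread between libraries of the same group was then set against that of the 4777 features whose count was 10 or more throughout. On the log2(CPM + 1) scale the SD within groups had a median of 0.77 over these features. It was 2.5 for *Cst3*, and 99.8% of the features had a smaller value. It was 1.85 for *Ctsl*, with 98.4% of the features below it. *Ctsb* and *Apoe*, with 0.84 and 0.76, were near the median. *Ctsd* did not reach 10 counts in every library and is not one of these features. Its SD was 1.38, with 90.6% of the features below it, on a scale where the added 1 compresses its low counts.

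Ratios between genes of the same library do not depend on how libraries are scaled. The ratio of *Cst3* to *Ctsl*, inhibitor to protease, was 6.51 in control 1 and 3.88 in control 3 in FPKM, and 8.47, 2.32 and 4.11 in CYP11A1 1, 2 and 3. It varied 3.66-fold over the libraries, while *Cst3* itself varied 14.6-fold and *Ctsl* 13.8-fold in FPKM. The ratio of *Ctsl* to *Ctsb*, a pair of cysteine proteases, was 25.2 and 1.87 in the controls and 7.81, 3.45 and 7.32 in the CYP11A1 libraries. The 2 controls were thus the highest and the lowest library for this ratio, with the CYP11A1 libraries between them. The ratio of *Cst3* to *Ctsb* was likewise highest in control 1 (164) and lowest in control 3 (7.24). CYP11A1 2, at 7.98, was within the counting error of control 3, and CYP11A1 1 and 3 were at 66.2 and 30.1.

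The ratio of *Apoe* to *Ctsb* was among the steadiest, at 0.205 and 0.307 in the controls and 0.394, 0.247 and 0.108 in CYP11A1 1, 2 and 3. The ratio of *Ctsd* to *Ctsb* was 0.00272 in control 1 (exact 95% interval 6.87e-05 to 0.0153) and 0.00973 in control 3 (0.00264 to 0.0251). In CYP11A1 1, 2 and 3 it was 0.121, 0.0111 and 0.0774. CYP11A1 1 and 3 were above both controls by more than the counting error, and CYP11A1 2 was within the counting error of control 3. In the ratio of *Ctsd* to *Ctsl* CYP11A1 2 (0.00321) fell below control 3 (0.00521), within the counting error. CYP11A1 1 (0.0155) and CYP11A1 3 (0.0106) were above both controls, but their 95% intervals overlapped that of control 3 (0.00141 to 0.0134). The ratios are given as values and were not tested between the groups.

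**Figure D4:**
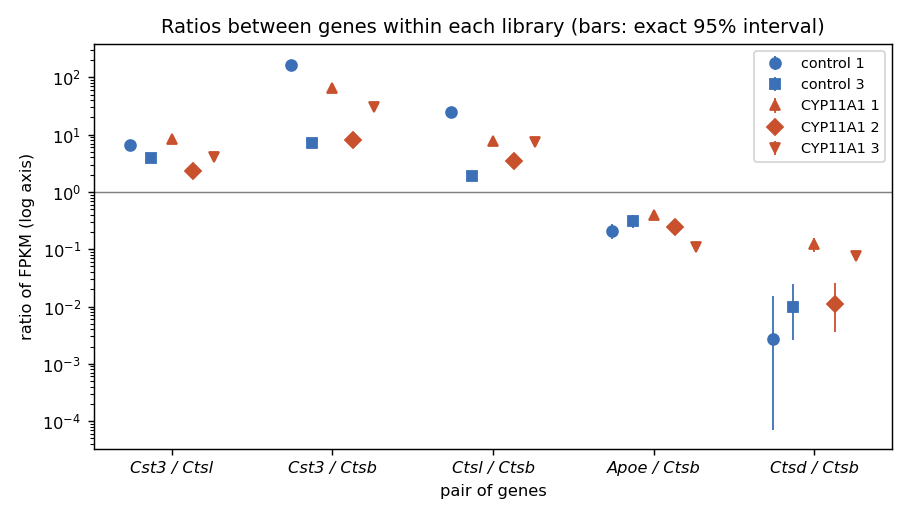
Ratio of FPKM (log axis) between pairs of genes in each library, with exact 95% intervals that cover counting error only. *Cst3* / *Ctsl* and *Apoe* / *Ctsb* vary less than 4-fold over the libraries, whereas *Ctsd* / *Ctsb* is highest in CYP11A1 1 and 3, at 0.121 and 0.0774.

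The likeness of the genes' profiles was measured as the root-mean-square distance between log2(CPM + 1) values centred on each gene's mean over the 5 libraries. *Cst3* and *Ctsl* were 0.65 apart, and 0 of the other 4776 features were nearer to *Cst3* than *Ctsl* was. Seen from *Ctsl*, 40 features were nearer than *Cst3*. *Ctsb* and *Apoe* were 0.61 apart, with 485 features nearer to *Ctsb* than *Apoe* was and 1057 nearer to *Apoe* than *Ctsb* was. *Ctsb* was 0.78 from *Ctsd*, with 39 of 4777 features nearer to *Ctsd* and 1260 of 4776 nearer to *Ctsb*, a distance in which the low counts of *Ctsd* are compressed by the added 1. The largest distance was 1.88, between *Cst3* and *Apoe*. These distances are not scaled for amplitude, and 99.8% of the features had a smaller SD within groups than *Cst3*. Few features can therefore lie near *Cst3*, and the count of 0 is not read as unusual likeness. The distances rest on 5 libraries and are given as a description.

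**Figure D5:**
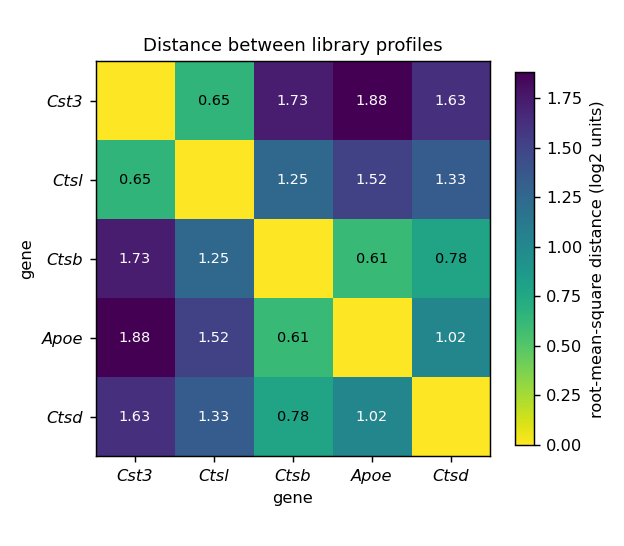
Root-mean-square distance (log2 units) between the centred library profiles of the 5 genes, both axes listing the genes. *Cst3* and *Ctsl* (0.65) form one close pair, and *Ctsb* is nearest to *Apoe* (0.61) and *Ctsd* (0.78).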

How the data were processed

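RNA of microglia from 2 control and 3 CYP11A1 offspring was compared, and a further control rat of the study was not analysed here. The authors deposited raw read counts per feature and FPKM, with 1 column per library assigned by its name. The submitters' processing notes name HISAT2 2.0.4 and HTSeq 0.9.1, and the genome build, annotation and strand setting are not given in the sources used here, so reads shared with overlapping or antisense genes could not be checked. The labels name a kit for small RNA and the methods of the study a kit for full-length cDNA from low input. The reads carry no molecular identifiers, so PCR copies of a molecule are counted as separate reads. The intervals treat reads as independent: they cover counting error only and may be too narrow for it. In the deposited FPKM each count is scaled by library total and feature length, and this length came to 1942 bp for Ctsb, 2022 bp for Ctsd, 1643 bp for Ctsl, 785 bp for Cst3 and 1232 bp for Apoe.

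Total counts were 9623896 to 13624545. Counts were tested with edgeR 4.0.16 in R 4.3.3 (glmQLFit with legacy set to FALSE, glmQLFTest, TMM, filterByExpr with a minimum count of 10, group as the only term), with Benjamini-Hochberg adjustment over all features and a threshold of 0.05. The SE is the log2 fold change divided by the square root of the F statistic. Intervals were exact Poisson or Clopper-Pearson at the 95% level (scipy 1.17.1). The alternatives were DESeq2 1.42.0, other scalings and filters, limma 3.58.1 on log2(FPKM + 1) or log2(FPKM + 0.1), a replicate block and libraries left out. The labels give no batch. On simulated counts with a dispersion of 0.05 the test recovered 95.6% of 182 features changed 4-fold, among 9554 tested. With the common dispersion of these libraries (1.09) given to every feature, it recovered 0 of 166 changed 4-fold and 0 of 165 changed 16-fold.

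The genes and lists were chosen with earlier results of these data known. The rule for naming genes was the 5 members, the most abundant genes of each planned list, and the genes with symbols whose profiles were nearest. The planned lists of lysosomal, lipid and marker genes need symbols and were not run, so that likeness is given between the members only. Levels relative to microglial markers and a fit without mitochondrially encoded genes were not run for the same reason.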

Additional observations from a re-analysis of the deposited data

How the results depend on the processing

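On all libraries edgeR called 0 features at the adjusted threshold of 0.05 (441 without adjustment), and 15 of 17 alternatives also called 0. The number was 11 with DESeq2 and 10 with edgeR and no filter on low counts, and none of the 5 genes was among them. The cause was not tested. No alternative brought a gene past the threshold: adjusted p-values ranged from 0.645 to 1 for Ctsb, 0.391 to 1 for Ctsd (lowest with DESeq2), 0.851 to 1 for Ctsl, 0.804 to 1 for Cst3 and 0.649 to 1 for Apoe. All were 1 to begin with. With single libraries left out, the log2 fold change ranged from -0.76 to 3.31 for Cst3, -0.51 to 2.82 for Ctsl, 0.58 to 1.4 for Ctsb, 0.29 to 1.42 for Apoe and 3.94 to 6.06 for Ctsd, which did not pass the filter without CYP11A1 1 or CYP11A1 3, nor where 10 counts were required throughout. The median over all features tested moved between these fits too, and was 0.69 without control 3, against 0.15 on all libraries. That fit gave the highest values of Apoe and Ctsd and the lowest of Cst3 and Ctsl. Where 1 control remained, it was assumed to vary like the other libraries. Without control 1 and CYP11A1 3 together, the values were 3.05 for Cst3, 2.1 for Ctsl, 0.31 for Ctsb, 0.48 for Apoe and 3.38 for Ctsd. On log2(FPKM + 1), limma gave 1.47 for Ctsd, a scale that compresses low values. Same-numbered libraries did not deviate together (r = -0.266 across 10346 features). With the replicate block on libraries 1 and 3, 0 features were called and 101 had an unadjusted p under 0.05. The crossed pairing, added after seeing the data, gave 0 and 355. In the replicate block the log2 fold change was 1.75 for Cst3, 1.51 for Ctsl, 5.24 for Ctsd, 1.38 for Ctsb and 1.07 for Apoe. The block fit leaves out CYP11A1 2. Without that library and with no block, the values were 0.71, 0.81, 5.2, 1.4 and 1.08, in the same order. At the spread of these libraries simulated 16-fold changes were not recovered, so changes of that size can go undetected, and Ctsd levels in 3 libraries rest on 5 counts or fewer.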

Other observations

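The closeness of *Cst3* and *Ctsl* was recomputed with each library left out, a step chosen after seeing the data. Between 2 and 9 of 4776 features were then nearer to *Cst3* than *Ctsl* was, and their distance lay between 0.47 and 0.72 log2 units. On the log2(FPKM + 1) scale 0 features were nearer. Seen from *Ctsl*, between 22 and 208 features were nearer than *Cst3*. For the pair of *Ctsb* and *Apoe*, between 292 and 1536 features were nearer to *Ctsb* than *Apoe* was, and their distance fell to 0.26 without CYP11A1 3. Seen from *Apoe*, between 153 and 1925 features were nearer than *Ctsb*. For *Ctsd*, between 34 and 562 features were nearer than *Ctsb*, the highest number without CYP11A1 3.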
